A study of Homo sapiens with 4 samples.

Results

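DNA replication and mitosis genes were examined in the human breast cancer cell line MDA-MB-231, made resistant to cadmium by long-term passage. The set holds 47 genes, 23 that act in S phase and 24 that act in mitosis, of 61541 genes in the count table. They were taken by symbol from a list of genes of both phases, with no measured value in the rule, and each symbol matched 1 Ensembl identifier of the table. Control cells were the parental line in ordinary medium with no treatment, and cadmium-resistant cells were the same line kept in cadmium at 10 µM. RNA sequencing libraries were made from total RNA, 2 per group (n = 2). Control libraries are called control 2 and control 3 after their columns in the count table, and the others are cadmium 1 and cadmium 2. The labels do not say whether both cadmium libraries came from separate selections, so a p-value here measures the spread between these libraries.

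A cell copies its DNA in S phase. The MCM2, MCM3, MCM4, MCM5, MCM6 and MCM7 proteins form a ring-shaped helicase that CDC6 and CDT1 load onto origins before S phase, and MCM10, CDC45 and the GINS complex then activate it. E2F transcription factors switch on most of these genes as cells leave G1. A later wave of genes, led by cyclin B and CDK1, builds the spindle. Some of its proteins are cleared late in mitosis through the anaphase promoting complex. Because both waves are read mainly in dividing cells, their transcripts are commonly used as a readout of proliferation. In bulk RNA, fewer cells in a phase and less RNA per cell in that phase cannot be told apart.

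The promoters of these genes differ between the waves in letters that the choice of genes did not use. Stretches of 120 bases upstream of the annotated start are shown for 2 S-phase genes and 3 mitotic genes, to show what each kind of match looks like. They were picked after the search, from stretches that no exon of the count table overlaps. They come from RefSeq (GRCh38.p14) and are written from 5′ to 3′ on the strand of the gene. Capitals mark E2F matches (TTTCCCGC, TTTGGCGC, TTTCGCGC or TTTGCCGC), the cell cycle genes homology region or CHR (TTTGAA) and CCAAT boxes, on either strand. They lie at chr20:33686386-33686505 (E2F1, minus strand), chr2:135876444-135876563 (MCM6, minus), chr1:43358861-43358980 (CDC20, plus), chr10:128126424-128126543 (MKI67, minus) and chr5:138178992-138179111 (KIF20A, plus).
E2F1: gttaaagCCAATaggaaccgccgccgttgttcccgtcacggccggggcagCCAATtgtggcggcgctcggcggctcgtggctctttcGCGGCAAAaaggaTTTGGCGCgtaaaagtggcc
MCM6: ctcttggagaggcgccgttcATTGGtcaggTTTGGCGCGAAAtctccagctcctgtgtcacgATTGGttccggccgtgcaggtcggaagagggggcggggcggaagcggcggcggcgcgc
CDC20: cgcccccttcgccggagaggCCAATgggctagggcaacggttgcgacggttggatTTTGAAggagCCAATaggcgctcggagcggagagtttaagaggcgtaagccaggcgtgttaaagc
MKI67: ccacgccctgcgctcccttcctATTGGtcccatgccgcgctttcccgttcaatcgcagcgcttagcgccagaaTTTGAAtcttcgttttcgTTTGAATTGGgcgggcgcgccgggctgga
KIF20A: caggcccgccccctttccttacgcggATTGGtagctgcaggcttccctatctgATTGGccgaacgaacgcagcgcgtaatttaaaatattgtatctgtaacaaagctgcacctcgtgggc

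E2F1 and MCM6 each carried 2 E2F matches and 2 CCAAT boxes in this stretch and no CHR, while CDC20 and MKI67 carried CCAAT boxes with 1 and 2 CHR matches and no E2F match. KIF20A held 2 CCAAT boxes alone. In MCM6 the E2F matches overlap each other, and in MKI67 a CHR runs into a CCAAT box on the other strand.

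Over the whole RefSeq window, from 250 bases before to 50 after the start, 52 promoters of 39 of the 47 genes were read. An E2F match was found in 14 of 27 S-phase promoters (51.9%) and 2 of 25 mitotic promoters (8.0%), both of CDK1, against 3.31% of all 35116 promoters of that length. A CHR was found in 1 of 27 (3.7%) and 14 of 25 (56.0%), against 15.2% of all promoters. CCAAT boxes were common in both sets, in 20 of 27 and 21 of 25, against 34.6% of all promoters. In the separate lists the shares were 29.3% for E2F in other S-phase promoters and 56.1% for CHR in other mitotic promoters. The core of the metal response element that MTF-1 can bind (TGCACNC or TGCGCNC) was present in 16 of 27 S-phase and 10 of 25 mitotic promoters, against 29.6% of all promoters and 33.8% of those of protein-coding genes. Such matches are letters in a window and were not tested for binding, and several genes have more than 1 promoter in the table.

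Total counts ranged from 51934729 to 61916007 reads per library. The 4 markers of the line, VIM, CD44, AXL and MSN, had between 163 and 1426 TPM in every library (TPM is a level per transcript length, scaled to the same total in every library). ESR1, PGR and FOXA1, which MDA-MB-231 cells lack, had at most 30 reads, while CDH1 reached 7.91 TPM in control 3 and GATA3 lay between 10.9 and 21.1 TPM. Of 5 markers of other cell types, CD3E and KRT5 had 0 reads, which allows up to 3 counts in a library, ALB had at most 7, PTPRC at most 135, and PECAM1 at most 8.51 TPM. All 5 were lower in control 2 than in control 3 or were at 0 in both, and their part in the results was not tested. Control libraries differed from each other more than cadmium libraries did, with a median absolute log2 ratio over all genes tested of 0.49 against 0.17, and the values of both controls are therefore given separately.

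All 47 genes were well expressed. Their counts ran from 604 to 89330 reads in a library, so counting error was small and the spread between libraries set the precision. Measured per length, 32 of the 47 were in the top 10% of the 19834 genes tested, and the lowest, POLA1 (10.1 TPM), a subunit of the polymerase that starts new strands, was at percentile 51.7. Mitotic genes had a median level of 193 TPM and S-phase genes one of 104 TPM. The most abundant transcripts were UBE2C with 708 TPM, TPX2 with 660 TPM and PCNA with 641 TPM.

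None of the 47 genes was called in cadmium-resistant cells by DESeq2 at an adjusted p-value below 0.1, where 1.13% of the genes tested were called (0.6% higher and 0.534% lower). The lowest adjusted p-values were 0.491 for E2F1 and 0.513 for RRM2, and these 2 were the only members with an unadjusted DESeq2 p-value below 0.05, against 6.92% of all genes tested. With edgeR 0 members and 0 genes were called, and 3 members (E2F1, RRM2 and PTTG1) had an unadjusted p-value below 0.05. Under limma-voom 0 members and 0 genes were called, with 2 members at an unadjusted p-value below 0.05. Among all genes, 1422 (7.39%) had such a p-value with edgeR and 1423 (7.4%) with limma-voom. The 95% Wald intervals of 39 members lay within a 2-fold change in either direction. A change beyond 2-fold was outside the interval for those genes, and smaller changes were not resolved with 2 libraries per group.

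**Figure D1:**
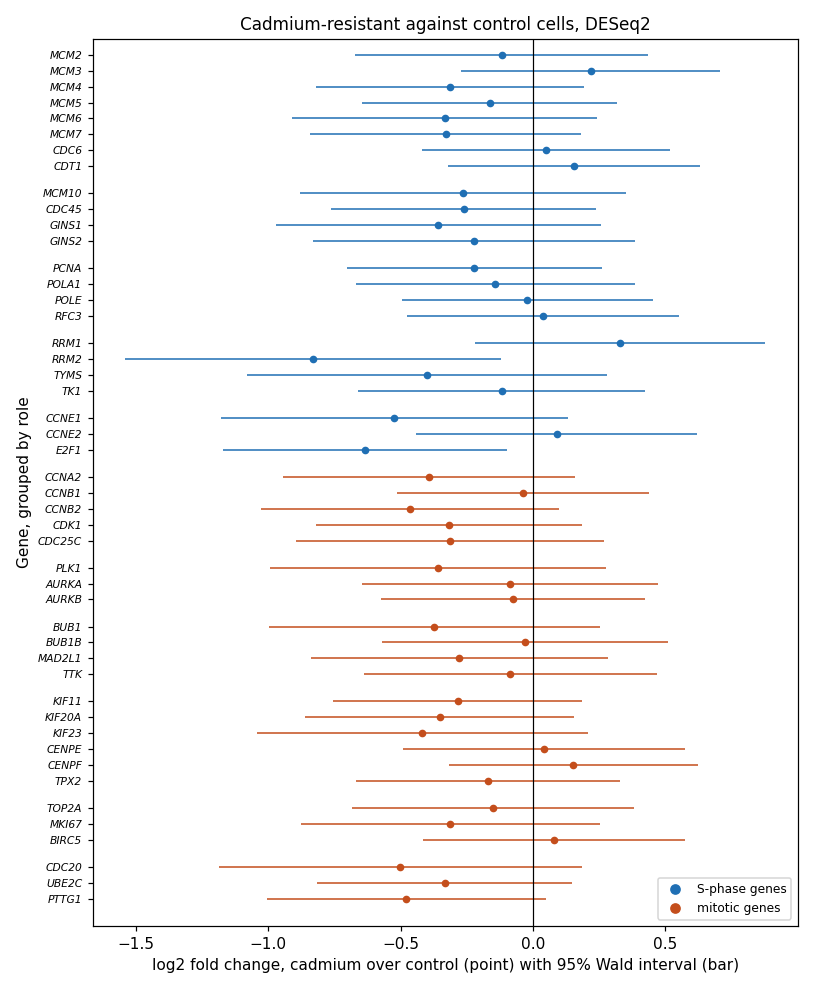
DESeq2 log2 fold change of each gene, cadmium over control (x axis), with its 95% Wald interval as a bar, for 23 S-phase genes (blue) and 24 mitotic genes (orange) grouped by role (n = 2 libraries per group). The intervals of 45 genes cross 0, and those of E2F1 and RRM2 lie below 0.

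The estimates nevertheless leaned to one side. The log2 fold change was below 0 for 38 of the 47 genes (80.9%), against 52.6% of all genes tested. Of the highly expressed genes, those whose mean normalized count reached 1000, 59.7% were below 0. The median of the members was -0.26, against -0.02 for all genes tested and -0.07 for the highly expressed genes. The groups did not overlap for 22 members (46.8%), where 40.3% of genes tested did not. Both cadmium libraries lay below both controls for 17 members (36.2%), where 19.9% of genes tested did, and above both controls for 5 (10.6%), where 20.3% did. Among genes whose mean normalized count reached 100, these shares were 23.8% below and 17.7% above. The median log2 ratio of control 3 over control 2 in the 47 members was -0.21. Fold changes varied less among the members than among other genes. Their standard deviation was 0.23, and it was 0.37 for the highly expressed genes.

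This leaning rested largely on control 2. Without that library the median log2 fold change was -0.05 for S-phase genes and -0.08 for mitotic genes, and 12 of 23 and 18 of 24 were below 0. Without control 3 the medians were -0.34 and -0.32. Members were called only in the 2 fits that lack a control. In both, the spread came from the cadmium pair alone and the single control was assumed to vary like it. The number called differed with the control that was kept. Without control 2, DESeq2 called 6 members (12.8%), where 15.0% of genes tested were called. Without control 3 it called 27 members (57.4%), where 31.2% of genes were called. Both of these fits called E2F1, KIF20A, PTTG1 and UBE2C, each lower in cadmium, which is 8.51% of the members. Of the genes tested in both fits, 5.25% were called in the same direction and 2.68% were called lower. The fits share both cadmium libraries, so this is a description of 4 genes.

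**Figure D2:**
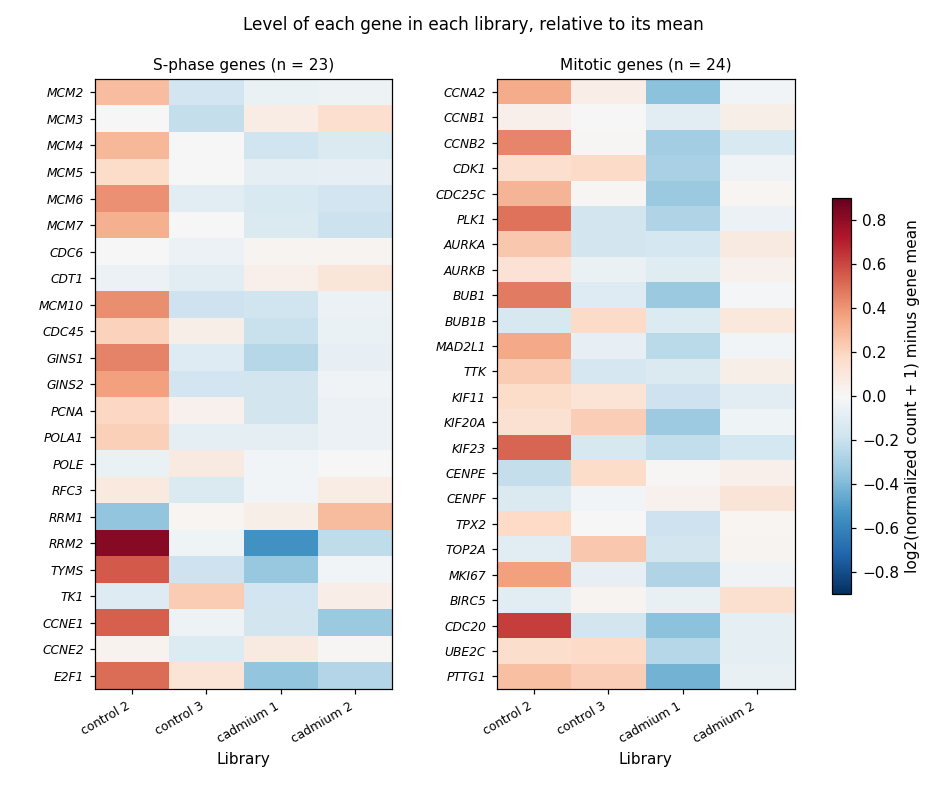
Level of each gene in each library as log2(normalized count + 1) minus the mean of that gene over the 4 libraries (colour), with 1 row per gene and 1 column per library. Control 2 holds the highest value for 31 of the 47 genes and cadmium 1 the lowest for 28.

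Licensing genes, which load the helicase before S phase, had estimates of either sign within 1 complex. MCM7 (ENSG00000166508, chromosome 7, 100092728 to 100101940, hg38, minus strand) had normalized counts of 30083 and 24104 in control 2 and control 3 and of 22024 and 21080 in cadmium 1 and cadmium 2. Both cadmium values were below both controls, with a log2 fold change of -0.33 (SE 0.26). MCM4 had 16452 and 13442 in the controls and 11836 and 12240 in the cadmium libraries, which is the same order, with a log2 fold change of -0.31. MCM3 (ENSG00000112118, chromosome 6, 52264014 to 52284881, minus strand) showed the opposite order, at 21944 and 18964 in the controls and 23051 and 24499 in the cadmium libraries. Its log2 fold change was 0.22 (SE 0.25) with an interval from -0.27 to 0.71. MCM5 and MCM6 lay below the controls, MCM2, of whose exonic bases 23.6% lie in exons of an opposite-strand gene, overlapped them, and CDC6 and CDT1 lay above them by 0.05 and 0.15 on the log2 scale. The 40 nearest expressed genes had a median log2 ratio of 0.34 around MCM3 and of -0.24 around MCM7, the same signs as these genes, and relative to these neighbours both differed by -0.12 and -0.09. Around MCM4 and CDT1 the neighbours were near 0, at -0.03 and -0.02.

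All 4 genes of helicase activation had estimates below 0, with a median log2 fold change of -0.26, and the 4 genes of polymerases and clamp had a median of -0.08. MCM10, which helps to start the helicase, had normalized counts of 4467 and 2940 in the controls and 2955 and 3218 in the cadmium libraries, so that only control 2 stood apart. GINS1 and GINS2 had the same pattern, with control 2 high and the other 3 libraries between 1750 and 1990 for GINS1 and between 1548 and 1705 for GINS2. CDC45, which joins the active helicase, had log2 fold change -0.26, with both cadmium libraries below both controls. PCNA (ENSG00000132646, chromosome 20, 5114953 to 5126626, minus strand), the sliding clamp of the polymerases, had 13396 and 12071 in the controls and 10492 and 11348 in the cadmium libraries. The groups did not overlap for PCNA, yet the log2 fold change of -0.22 was smaller than its standard error of 0.25. POLA1, POLE and RFC3 overlapped the controls, with log2 fold changes between -0.14 and 0.04.

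Nucleotide supply held the members with the lowest and the highest estimate. Ribonucleotide reductase makes deoxynucleotides from ribonucleotides, and RRM2 encodes its small subunit, which is made in S phase, whereas RRM1 encodes the large subunit. RRM2 (ENSG00000171848, chromosome 2, 10120698 to 10211725, plus strand) had normalized counts of 20032 and 11063 in the controls and 7796 and 9684 in the cadmium libraries. Both cadmium values were below both controls, but control 2 was much higher than the other 3 libraries. The log2 fold change was -0.83 (SE 0.36), and it was -0.34 without control 2 and -1.21 without control 3. RRM1 ran the other way, with 10176 and 13183 in the controls and 13513 and 15844 in the cadmium libraries, and its log2 fold change was 0.33 (SE 0.28). TYMS, the thymidylate synthase gene, had 5946 and 3558 in the controls and 3207 and 3989 in the cadmium libraries. Its groups overlapped, and its log2 fold change of -0.40 became 0.01 without control 2. Exons of genes on the opposite strand cover 47.5% of the exonic bases of TYMS, and since strand was not used its count is uncertain. TK1, thymidine kinase, had 9375 and 11906 in the controls and 9018 and 10596 in the cadmium libraries, with overlapping groups.

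The regulators of S-phase entry included the lowest p-value of the set. E2F1 (ENSG00000101412, chromosome 20, 33675477 to 33686385, minus strand), the transcription factor that drives the S-phase programme, had normalized counts of 10455 and 8043 in the controls and 5767 and 6141 in the cadmium libraries. Each cadmium value was below each control. The log2 fold change was -0.64 (SE 0.27, unadjusted p = 0.0201 in DESeq2), and it kept its sign in every fit, from -0.82 without control 3 to -0.44 without control 2. Neighbouring genes of E2F1 had a median log2 ratio of -0.10. Its promoter, printed above, has E2F matches of its own. CCNE1, cyclin E1, which activates CDK2 at the start of S phase, had 1092 and 728 in the controls and 670 and 596 in the cadmium libraries, below both controls, with a log2 fold change of -0.52 (SE 0.33). That value was -0.20 without control 2 and -0.80 without control 3. CCNE2, its paralog, overlapped the controls with a log2 fold change of 0.09, and 37.1% of its exonic bases lie in exons of opposite-strand genes.

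Mitotic cyclins and CDK1 all had estimates below 0. CCNB2 (ENSG00000157456, chromosome 15, 59105126 to 59125045, plus strand), cyclin B2, had normalized counts of 7126 and 5282 in the controls and 4222 and 4768 in the cadmium libraries. CCNA2, cyclin A2, had 11301 and 9313 in the controls and 6917 and 8796 in the cadmium libraries. Both genes, and CDK1, had cadmium values below both controls, with log2 fold changes of -0.47, -0.39 and -0.32. CCNB1, cyclin B1, the main partner of CDK1, was nearly level, with 16081 and 15510 in the controls and 14605 and 16175 in the cadmium libraries. Its log2 fold change was -0.04 (SE 0.24), with an interval from -0.51 to 0.44, and it turned to 0.02 with upper-quartile scaling. The difference between CCNB1 and CCNB2 was not tested.

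Mitotic kinases and spindle checkpoint genes overlapped the controls in all 7 cases. PLK1 (ENSG00000166851, chromosome 16, 23677656 to 23690367, plus strand), Polo-like kinase 1, had normalized counts of 11468 and 7288 in the controls and 6760 and 7871 in the cadmium libraries. Control 2 alone was high, and the log2 fold change of -0.36 was 0.00 without it. Exons of other genes cover 12.8% of the exonic bases of PLK1 and 10.2% of those of BUB1B, so their counts are uncertain. AURKA and AURKB, the Aurora kinases, had log2 fold changes of -0.09 and -0.08. In the checkpoint, which holds cells until every chromosome is attached, BUB1, MAD2L1, TTK and BUB1B had log2 fold changes of -0.37, -0.28, -0.09 and -0.03.

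Motor and spindle genes were mixed. KIF23, a kinesin needed for the last cut between daughter cells, had normalized counts of 13132 and 8297 in the controls and 7830 and 8205 in the cadmium libraries, so that control 3 was close to both cadmium values. Its log2 fold change of -0.42 was -0.05 without control 2. KIF20A, another kinesin of late mitosis, had 11284 and 11945 in the controls and 8190 and 10000 in the cadmium libraries. Its controls were close together, and both cadmium values were below them, with a log2 fold change of -0.35 (SE 0.26). TPX2, which helps microtubules to grow around chromosomes, had 35246 and 31058 in the controls and 27434 and 31508 in the cadmium libraries, with overlapping groups. CENPF, a kinetochore protein, was the single mitotic gene with both cadmium libraries above both controls, at a log2 fold change of 0.15. CENPE overlapped the controls at 0.04, and KIF11 lay below them at -0.28.

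Among the markers used to count dividing cells, MKI67 (ENSG00000148773, chromosome 10, 128096659 to 128126423, minus strand), which encodes the Ki-67 antigen, had normalized counts of 84526 and 62253 in the controls and 54283 and 63932 in the cadmium libraries. Control 3 lay between the cadmium libraries. The log2 fold change was -0.31 (SE 0.29) and it was -0.08 without control 2. TOP2A, which untangles sister chromosomes, and BIRC5, a subunit of the chromosomal passenger complex, overlapped the controls at -0.15 and 0.08.

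The 3 genes of the anaphase promoting complex and its targets had a median log2 fold change of -0.48, the lowest of the 6 mitotic roles. PTTG1 (ENSG00000164611, chromosome 5, 160421855 to 160428739, plus strand) encodes securin, which guards the link between sister chromosomes, and had normalized counts of 9202 and 8920 in the controls and 5703 and 7299 in the cadmium libraries. UBE2C, the ubiquitin-conjugating enzyme of the complex, had 13288 and 13408 in the controls and 9934 and 11251 in the cadmium libraries. For both genes the controls were nearly equal and both cadmium values were below them. The log2 fold changes were -0.48 (SE 0.27) for PTTG1 and -0.33 (SE 0.25) for UBE2C, and leaving out any 1 library kept them between -0.67 and -0.32 and between -0.43 and -0.25. CDC20, an activator of the complex, had 19087 and 11025 in the controls and 9593 and 11679 in the cadmium libraries, and its log2 fold change of -0.50 was -0.05 without control 2.

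The S-phase and mitotic genes were then set against each other. The median log2 fold change was -0.22 for S-phase genes and -0.30 for mitotic genes, with 17 of 23 and 21 of 24 below 0. Summed over the genes, S-phase transcripts came to 4026 and 3800 TPM in control 2 and control 3, and to 3545 and 3660 TPM in cadmium 1 and cadmium 2. Mitotic transcripts came to 6557, 6230, 5248 and 5842 TPM in the same order. Both sums were lower in each cadmium library than in each control. Relative to the mean of each gene over the libraries, the median S-phase gene stood above the median mitotic gene by 0.01 and -0.06 on the log2 scale in control 2 and control 3, and by 0.09 and -0.03 in cadmium 1 and cadmium 2. The values of the groups overlapped, so these libraries showed no separation of the phases beyond the spread within a group.

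The phases differed more between libraries of the same group. Cadmium 2 was higher than cadmium 1 for 24 of 24 mitotic genes, with a median log2 ratio of 0.21 and a range from 0.04 to 0.36. For S-phase genes it was higher in 18 of 23, with a median of 0.09. Among the highly expressed genes, 58.5% were higher in cadmium 2 and the median ratio was 0.03. The 61 other mitotic genes of a separate list, such as kinetochore and condensin genes, had the same order in 56 cases with a median of 0.17, and the 51 other S-phase genes in 33 cases with a median of 0.06. Each of these ratios compares 2 libraries and has no replicate. Between the controls the ratios were wider. The median log2 ratio of control 3 over control 2 was -0.29 for S-phase genes, of which 20 of 23 were higher in control 2, and -0.19 for mitotic genes, of which 16 of 24 (66.7%) were. Among the highly expressed genes 59.1% were higher in control 2, and their median ratio was -0.10.

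**Figure D3:**
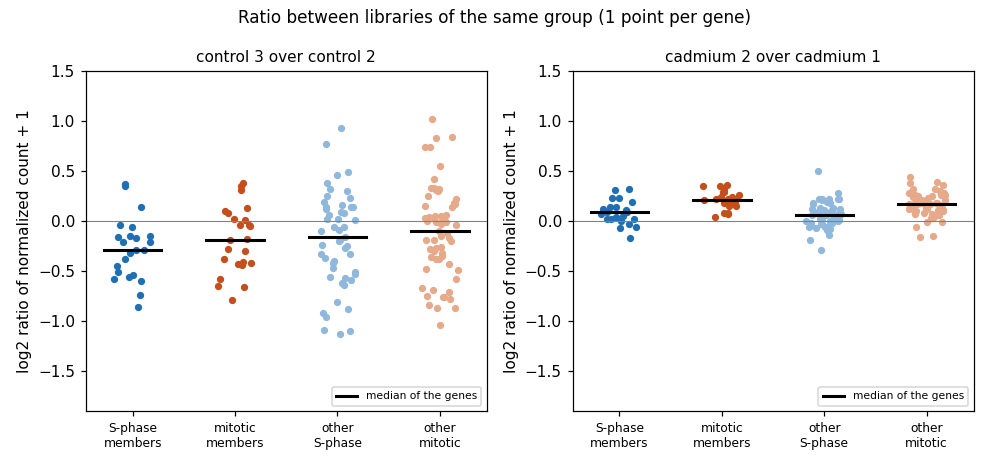
Log2 ratio of normalized count + 1 between the 2 control libraries (left) and between the 2 cadmium libraries (right), with 1 point per gene and a black line at the median, for the S-phase and mitotic members and for 51 other S-phase and 61 other mitotic genes. All 24 mitotic members lie above 0 on the right, and points are more widely spread on the left.

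Position along the chromosomes went with part of the control difference. The log2 ratio between the controls of each member and the median ratio of its 40 nearest expressed genes had a Pearson correlation of 0.71 over the 47 genes, 0.84 over the 23 S-phase genes and 0.58 over the 24 mitotic genes, given as a description because neighbouring genes and members share the same 2 libraries. RRM2 had a ratio of -0.86 where its neighbours on chromosome 2 had -0.69, and MCM6, on the same chromosome, had -0.52 where its neighbours had -0.65. MCM10, CDC20, KIF23 and TYMS likewise had ratios from -0.79 to -0.60 in neighbourhoods from -0.66 to -0.50. RRM1 was the reverse, at 0.37 among neighbours at 0.56. Other genes were unlike their neighbours. PLK1, CCNE1, GINS1, GINS2 and MKI67 had ratios from -0.65 to -0.44 among neighbours between -0.09 and 0.01. MAD2L1 and CCNA2 had ratios of -0.42 and -0.28 among neighbours at 0.36 and 0.34, of the opposite sign.

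**Figure D4:**
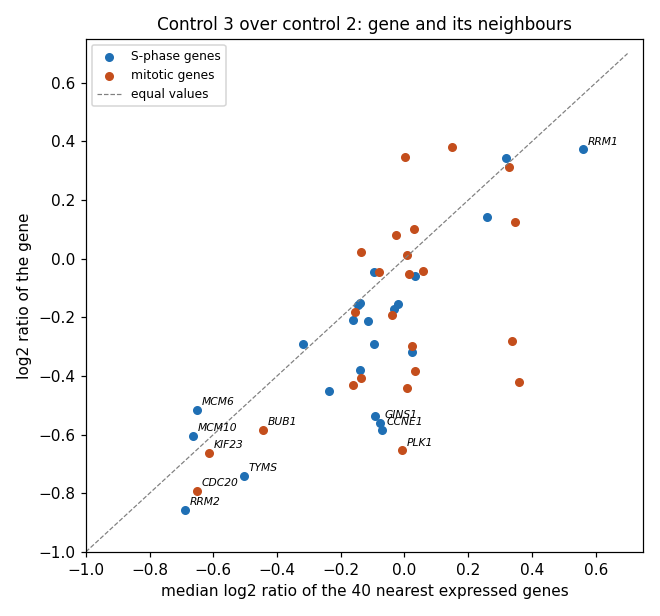
Log2 ratio of control 3 over control 2 for each gene (y axis) against the median of the same ratio over its 40 nearest expressed genes, whose mean normalized count reached 100 (x axis), with S-phase genes in blue, mitotic genes in orange and a dashed line of equal values. RRM2, CDC20, TYMS, KIF23, MCM10 and MCM6 lie at the lower left near the line, and PLK1, CCNE1 and GINS1 are among those well below it.

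Set against neighbours, the difference between cadmium and control was smaller. Subtracting the median of the 40 nearest genes left a median of -0.12 for S-phase genes and of -0.20 for mitotic genes, with 16 of 23 and 22 of 24 genes below their neighbours, where 49.9% of the highly expressed genes were. Leaving out 1 library at a time moved these medians between -0.20 and -0.05 in S phase and between -0.29 and -0.08 in mitosis. The values nearest 0 were those without control 2. Without cadmium 1 the medians were -0.07 in S phase and -0.11 in mitosis, and without cadmium 2 they were -0.07 and -0.29. E2F1 (-0.53), RRM2 (-0.51), PTTG1 (-0.48), CCNE1 (-0.45) and CCNB2 (-0.41) were the lowest relative to neighbours, and CDT1 (0.17) and CENPF (0.15) the highest.

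Other genes of the same pathways were read from 3 lists. Of 51 other S-phase genes none was called, with 0 at an unadjusted DESeq2 p-value below 0.05, 1 with edgeR and 0 with limma-voom. Their median log2 fold change was -0.16, with 37 below 0, and the lowest p-values belonged to DBF4 (-0.57), a partner of the kinase that fires origins, and TICRR (-0.66). Without control 2 these values were -0.30 and -0.01. Of 61 other mitotic genes none was called either. Their median was -0.27, with 50 below 0, and 5 had an unadjusted DESeq2 p-value below 0.05 (6 with edgeR and 5 with limma-voom). Those 5 were SPC24 and CENPA, of the kinetochore, with log2 fold changes of -0.70 and -0.84 (-0.70 and -0.36 without control 2), and CEP55, CDCA2 and KIF15, which were named after their values were seen, with -0.56, -0.57 and -0.49. SPC24 had equal controls, at normalized counts of 4186 and 4178, and 2233 and 2910 in the cadmium libraries.

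The remaining list, of 25 regulators of the 2 waves, held the single call. MYBL2 (ENSG00000101057, chromosome 20, 43667019 to 43716495, plus strand) encodes B-MYB, which is itself switched on by E2F factors and helps to switch on mitotic genes. Its normalized counts were 12256 and 8414 in the controls and 3162 and 4118 in the cadmium libraries. Both cadmium values were below both controls. DESeq2 gave a log2 fold change of -1.51 (SE 0.32) with an adjusted p-value of 0.000909. With edgeR the log2 fold change was -1.50 with an adjusted p-value of 0.674 and an unadjusted p-value of 0.00208, and with limma-voom the adjusted p-value was 0.669. The call was also lost without cadmium 1 (-1.33, DESeq2 adjusted p = 1.00) and without cadmium 2 (-1.71, DESeq2 adjusted p = 0.474), and it held without either control. Neighbouring genes of MYBL2 had a median log2 ratio of -0.02.

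The same list held E2F2 to E2F8, which are described here after their values were seen, and differences between them were not tested. E2F2, an activator of S-phase genes like E2F1, had normalized counts of 1690 and 773 in the controls and 615 and 572 in the cadmium libraries, with a fitted difference of -1.05 (log2, SE 0.42). E2F3, another activator, had 3492 and 3117 in the controls and 5299 and 4494 in the cadmium libraries, with a fitted difference of 0.57 (log2, SE 0.26), in a stretch of chromosome 6 whose genes had a median log2 ratio of 0.32. E2F7, a repressor of S-phase genes, had 5851 and 6532 in the controls and 8771 and 8876 in the cadmium libraries, with a fitted difference of 0.51 (log2, SE 0.25). E2F2 was below both controls in each cadmium library and E2F3 and E2F7 were above them. None of the 3 passed over all genes, with DESeq2 adjusted p-values of 0.392, 0.594 and 0.644. E2F4, E2F5, E2F6 and E2F8 had log2 fold changes of -0.03, -0.47, -0.53 and -0.50, and none of them was called. FOXM1, also named after its values were seen, is another activator of mitotic genes. It had 15132 and 18179 in the controls and 13516 and 15207 in the cadmium libraries, and the groups overlapped.

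**Figure D5:**
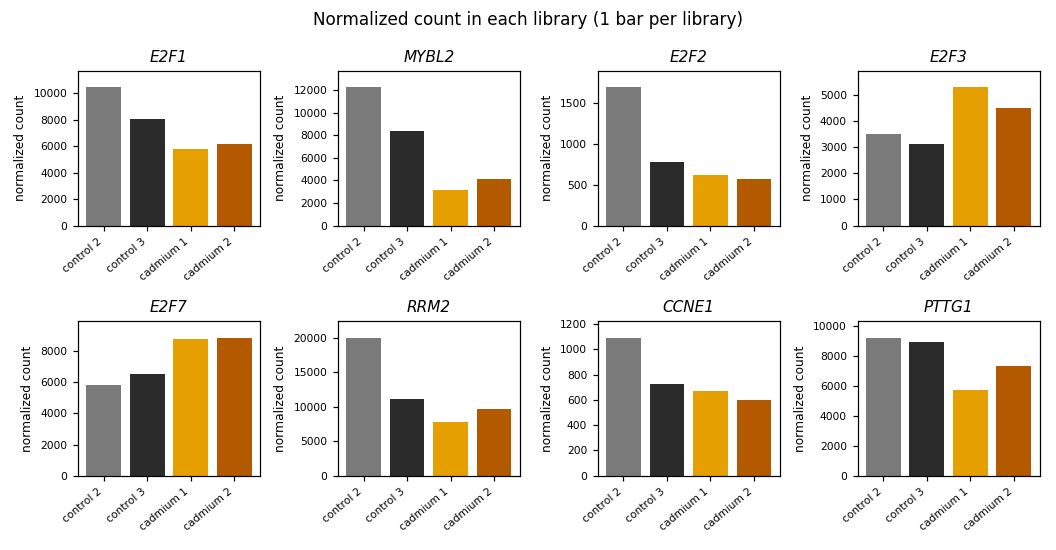
Normalized count of E2F1, MYBL2, E2F2, E2F3, E2F7, RRM2, CCNE1 and PTTG1 in each library, with 1 bar per library and axes from 0. For E2F1, MYBL2, E2F2, RRM2, CCNE1 and PTTG1 both cadmium bars are below both control bars, and for E2F3 and E2F7 they are above them.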

How the data were processed

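The authors removed adaptors with bbduk, mapped the pairs on hg38 using hisat2 and ran featureCounts 2.0.1 on Ensembl genes. The deposited table therefore holds counts of reads, not normalized. The header sets no pairing or strand option, so each mate was counted, strand was ignored and reads in several genes were dropped. Between 70.6% and 71.5% of the counts from 1 to 20 were even numbers. Exons of other genes cover part of 13 of the 47 genes, over 10% of the exonic bases of 5. Groups came from the labels. Control columns are numbered differently from the labels and from the command in the header, so they carry a group only. Symbols were matched for 61369 identifiers.

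All genes were fitted with DESeq2 1.42.0 in R 4.3.3 (median-of-ratios size factors, two-sided Wald test, Benjamini-Hochberg adjustment after a filter at a mean normalized count of 7.65, threshold 0.1), which is the tool the study used. Normalized counts are counts over these size factors. Intervals are 95% Wald intervals. Alternatives were edgeR 4.0.16 (quasi-likelihood), limma 3.58.1 (voom), other scalings, filters and thresholds, halved counts and leaving out each library. Scripts were tested on simulated counts drawn from the means and spreads of all 33455 genes with a read. With no change put in, DESeq2 called 59 of 33455 genes at the same threshold, edgeR 10 and limma-voom 2. A 2-fold change was then put into 200 genes drawn from those whose mean normalized count reached 100. DESeq2 recovered 43.5% of them, edgeR 0.0% and limma-voom 0.0%. With a 4-fold change the shares were 93.5%, 84.0% and 82.5%. Neighbours are the 40 nearest genes whose mean normalized count reached 100, and their ratios are log2 of mean normalized count + 1. Plots used Python 3.11.15.

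The 47 genes and all lists were chosen with earlier results of these data known. Values in every library are given for the members with the 6 lowest p-values, the 3 highest TPM values and the 3 largest ratios between controls in each phase. They are also given for PCNA, E2F1, CCNE1, CCNB1, MKI67, TYMS, MCM3 and MCM7. Of each other list, the called gene or the genes with the 2 lowest p-values were named. Among those, MYBL2 and SPC24 have values in every library, and DBF4, TICRR and CENPA have fold changes only.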

Additional observations from a re-analysis of the deposited data

How the results depend on the processing

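No paired analysis was possible because control columns numbered 2 and 3 cannot be tied to labels numbered 1 and 2, and no replicate block could be fitted. The number of genes called over the whole table went from 119 higher and 106 lower with DESeq2 to 0 and 0 with edgeR and with limma-voom, and it ranged from 9 to 2678 higher and from 5 to 3511 lower on leaving out each library in turn. With upper-quartile scaling the split was 152 higher and 88 lower, the median of all genes was 0.04, and the members' medians were -0.16 in S phase and -0.24 in mitosis. No member was called with edgeR, limma-voom, any other scaling, filter or threshold, or halved counts. Leaving out 1 library gave 0 to 1 S-phase genes higher, 0 to 13 S-phase genes lower and 0 to 13 mitotic genes lower, with calls only in the fits that lack a control. The median log2 fold change ranged from -0.34 to -0.05 for S-phase genes and from -0.41 to -0.077 for mitotic genes over these fits, the values nearest 0 being those without control 2. The S-phase minus mitotic median ranged from 0.084 to 0.098 in cadmium 1 and from -0.086 to 0.012 in cadmium 2 when another library was left out. It ranged from -0.016 to 0.064 in control 2 and from -0.11 to -0.018 in control 3. Of the 47 members, 3 changed sign with upper-quartile scaling, 10 without control 2, 5 without control 3, 3 without cadmium 1 and 2 without cadmium 2. Among the members with values in every library, directions turned for CCNB1 with upper-quartile scaling (0.022) and on leaving out a library for CCNB1 (-0.12 to 0.029), TYMS (-0.74 to 0.014), MCM10 (-0.55 to 0.068), PLK1 (-0.66 to 0.0032) and TK1 (-0.28 to 0.053). With 2 libraries per group and controls this far apart, changes well under 2-fold in these genes were not resolved. Changes of 2-fold were often missed too in simulated counts. DESeq2 recovered 43.5% of 200 genes with such a change there, and edgeR and limma-voom recovered 0.0%. Those 200 were drawn from all genes whose mean normalized count reached 100. Such genes had a median count of 1742 and a median standard error of 0.31, against 8774 and 0.27 for the members. Recovery for the members themselves was not measured. The lack of calls among the members therefore does not by itself exclude a change of that size. The Wald intervals of 39 of the 47 members lay within a 2-fold change in either direction, so a larger change was outside the interval for those genes. For the remaining members the interval reached beyond a 2-fold change. The cause of the difference between the controls was not tested.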
